A study of Mus musculus with 10 samples.

Results

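The genes described here encode the nuclear subunits of complexes II to V of the mitochondrial oxidative phosphorylation system, cytochrome c, and the assembly factors that carry Cox symbols. They were chosen as the protein-coding genes of the count table whose symbol is Sdha to Sdhd, Cyc1 or Cycs, or begins with Uqcr, Atp5 or Cox followed by a digit. This rule uses names and no measured value, although it was written with earlier results of these data known. The table held 61 such genes among 60676 rows, and 57 of the 61 had more than 10 counts in at least 6 of the 10 mice. These 57 were tested among 13453 genes that passed the same filter. RNA was prepared from the apical part of the ventricles (labelled left ventricle) of male mice, enriched for polyadenylated transcripts and sequenced as 1 library per mouse. Both groups carry the knockout of Csrp3, the gene for muscle LIM protein (MLP), a model of dilated cardiomyopathy, both carry floxed Rrad (RAD fl/fl), and both received tamoxifen once at 10 weeks of age (100 mg/kg, intraperitoneally). The 5 cRADΔ/Δ-MLPKO mice carry MYH6-MerCreMer in addition, so that Rrad is deleted in cardiomyocytes after tamoxifen, and the 5 MLPKO mice do not, so that the groups also differ in the presence of the recombinase. Tissue was taken 1 month after tamoxifen, with an age of 16 weeks in the sample labels. RAD is a small G protein that restrains the L-type calcium channel, and the comparison asks how its loss in cardiomyocytes changed the RNA of the failing heart.

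The adult ventricle obtains most of its ATP by oxidative phosphorylation, and its mitochondria are dense with respiratory chain proteins. Complex II (succinate dehydrogenase) passes electrons from succinate to coenzyme Q, complex III passes them to cytochrome c, complex IV (cytochrome c oxidase) hands them to oxygen, and complex V (ATP synthase) uses the proton gradient to make ATP. The core of complexes III, IV and V includes subunits made from mitochondrial DNA, whereas every complex II subunit is nuclear. Several complex IV subunits exist in a form typical of heart and skeletal muscle and in a general form.

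The total count per mouse was 33457406 to 49965101 in MLPKO and 33759811 to 46280882 in cRADΔ/Δ-MLPKO. The 61 genes took 2.18% to 2.56% of the unscaled counts in MLPKO and 2.65% to 3.00% in cRADΔ/Δ-MLPKO, without overlap. After TMM scaling, the mean log2 CPM over the 57 tested genes did overlap, at 7.37 to 7.61 in MLPKO and 7.52 to 7.68 in cRADΔ/Δ-MLPKO. Rrad itself lay at 139.7 to 282 CPM (counts scaled to the size of each library) in MLPKO and 135 to 202 CPM in cRADΔ/Δ-MLPKO (log2 fold change -0.38 ± 0.20, SE, edgeR adjusted p = 0.29), so the RNA level of the targeted gene overlapped between the genotypes. RNA of Csrp3, the gene knocked out in both groups, was counted in every mouse, at 1009 to 3261 CPM in MLPKO and 691 to 1177 CPM in cRADΔ/Δ-MLPKO (log2 fold change -1.08 ± 0.29, SE, edgeR adjusted p = 0.0667). Which part of either gene these reads came from cannot be read from counts per gene, so neither level checks the deletion. In each library, 73.7% to 80.3% of the values between 1 and 20 were even. Many counts may therefore stand for a pair of reads from 1 fragment, and the settings for read pairs are not given in the sources used here. The number of fragments behind a count, and behind the minimum of more than 10 counts, is uncertain for that reason. The summed level of 10 cardiomyocyte markers was 82216 to 93450 CPM in MLPKO and 63927 to 77352 CPM in cRADΔ/Δ-MLPKO, and 1 of the 10 passed the test (Tnnt2, cardiac troponin T, lower). At an unadjusted p under 0.05, 5 of the 10 were lower in edgeR, and DESeq2 called 2 lower. The log2 fold change was below 0 for 9 of the 10 and above 0 for 1 (Tnni3, 0.13). The 5 endothelial markers summed to 602 to 690 CPM and 714 to 824 CPM (1 of 5 passed, Tek, 5 at an unadjusted p under 0.05 and 2 in DESeq2, all higher). The 4 smooth muscle and pericyte markers summed to 454 to 544 CPM and 568 to 707 CPM (1 of 4 passed, Rgs5, 2 at an unadjusted p under 0.05 and 1 in DESeq2, all higher). The 6 macrophage markers summed to 112 to 157 CPM and 137 to 237 CPM (0 of 6 passed in edgeR, 6 at an unadjusted p under 0.05 and 2 in DESeq2, all higher). Fibroblast markers overlapped, at 1354 to 1986 CPM and 1104 to 2035 CPM. Skeletal muscle markers summed to at most 3.12 CPM, with Myh4 at 0 in every mouse, and adipocyte markers to at most 25.7 CPM, in cRADΔ/Δ-MLPKO mouse 3. In RNA of whole tissue, fewer cells of a type and less RNA per cell cannot be told apart, and the part of these markers in the results below was not tested.

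The transcripts of complexes II to V lay slightly higher in cRADΔ/Δ-MLPKO across nearly the whole group, with complex IV structural subunits at the top, but 1 gene passed the test. The log2 fold change was above 0 for 52 of the 57 genes, against 52.1% of all genes tested, and its median was 0.12 against 0.01 over all genes. Cox8a, a small membrane subunit of complex IV in its general form, was higher at an edgeR adjusted p under 0.05, against 0.944% of all genes called higher, and 0 of the 57 were lower, against 1.8% of all genes. At an unadjusted p under 0.05, 20 of the 57 were higher and 1 was lower, where 10.1% and 11.5% of all genes were. DESeq2 called 7 of the 57 higher and 1 lower, with 3.81% and 5.84% of all genes called. All 20 genes at an unadjusted p under 0.05 on the higher side were structural subunits. The genes did not vary independently: after the genotype mean was subtracted, the median Pearson correlation between pairs of the 46 structural subunits and cytochrome c was 0.66 across the 10 mice, against 0.05 between pairs of the 4114 genes above a log2 CPM of 5. The points share library, depth and tissue piece, so the genes on one side of 0 are not independent observations.

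**Figure D1:**
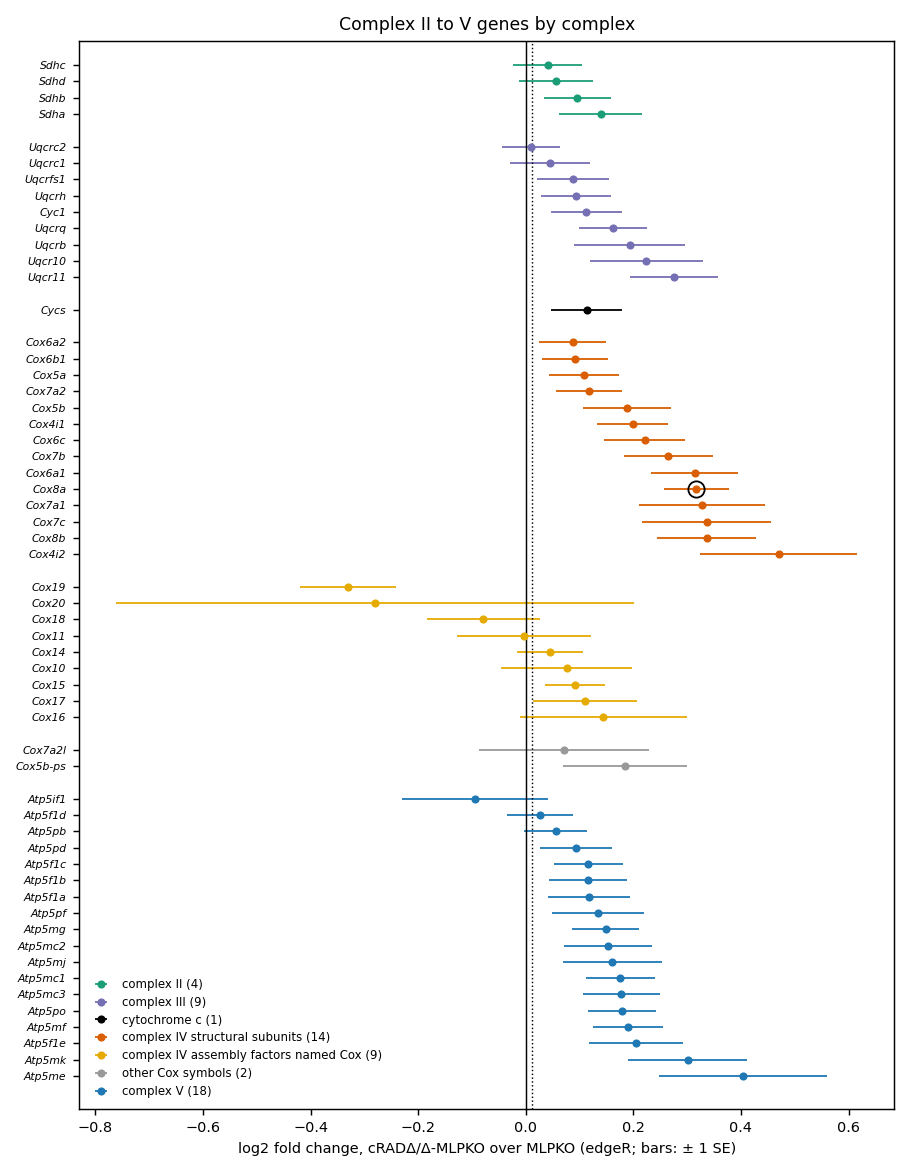
Log2 fold change (cRADΔ/Δ-MLPKO over MLPKO, x axis) of each of the 57 genes tested, one row per gene, coloured by complex, with bars of 1 SE from edgeR and a dotted line at the median of all genes tested. Complex IV structural subunits all lie right of 0, from 0.09 to 0.47, the assembly factors lie on both sides, and the circle marks Cox8a, the gene past the adjusted threshold.

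Complex II showed the smallest displacement of the complexes. Its 4 subunits had log2 fold changes from 0.04 to 0.14 (median 0.08), and 0 of 4 reached an unadjusted p under 0.05 in edgeR or a call in DESeq2. Sdha, the flavoprotein that oxidizes succinate (chr13:74469359-74498436, minus strand, GRCm39), measured 1347, 1187, 1322, 1416 and 1428 CPM in MLPKO mice 1 to 5 and 1382, 1575, 1366, 1652 and 1404 CPM in cRADΔ/Δ-MLPKO mice 1 to 5. The genotypes overlapped, with cRADΔ/Δ-MLPKO mice 2 and 4 above every MLPKO mouse (log2 fold change 0.14 ± 0.08, SE, edgeR adjusted p = 0.323). Sdhb, the iron-sulphur subunit, measured 561, 513, 576, 619 and 561 CPM in MLPKO and 574, 613, 592, 644 and 602 CPM in cRADΔ/Δ-MLPKO. Only cRADΔ/Δ-MLPKO mouse 4 lay above every MLPKO mouse (0.10 ± 0.06, SE, edgeR adjusted p = 0.4). Sdhc and Sdhd anchor the complex in the inner membrane. Sdhc measured 427, 406, 428, 443 and 458 CPM in MLPKO and 413, 469.6, 419, 488 and 434 CPM in cRADΔ/Δ-MLPKO (0.04 ± 0.06, SE, edgeR adjusted p = 0.767). Sdhd measured 316, 269, 332, 343 and 325 CPM in MLPKO and 312, 339, 330.2, 339.5 and 327 CPM in cRADΔ/Δ-MLPKO (0.06 ± 0.07, SE, edgeR adjusted p = 0.684). Both anchors overlapped widely, and no cRADΔ/Δ-MLPKO mouse exceeded the highest MLPKO mouse in Sdhd.

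In complex III, 9 of 9 genes had a log2 fold change above 0 (median 0.11), and the largest values belonged to small accessory subunits. Uqcr11, one of these (chr10:80236542-80242676, minus strand), measured 212, 193, 222, 204 and 241 CPM in MLPKO and 271, 291, 229, 268 and 239 CPM in cRADΔ/Δ-MLPKO. Of the cRADΔ/Δ-MLPKO mice, 3 lay above every MLPKO mouse (log2 fold change 0.28 ± 0.08, SE, edgeR adjusted p = 0.0821). The other 2 accessory subunits with the smallest p were Uqcrq and Uqcr10. Uqcrq measured 367, 364, 397, 389 and 389.9 CPM in MLPKO and 430.2, 451, 387, 462 and 404 CPM in cRADΔ/Δ-MLPKO (0.16 ± 0.06, SE, edgeR adjusted p = 0.158). Uqcr10 measured 183, 179, 193, 170.0 and 231 CPM in MLPKO and 246, 261, 188, 220.3 and 201 CPM in cRADΔ/Δ-MLPKO (0.22 ± 0.11, SE, edgeR adjusted p = 0.243). In both genes cRADΔ/Δ-MLPKO mouse 3 was the lowest of its genotype and lay within the MLPKO range. The catalytic subunits lay closer to 0 than Uqcr11, Uqcrq and Uqcr10. Of the other accessory subunits, Uqcrb had a log2 fold change of 0.19, and Uqcrh had 0.09, within the range of the catalytic subunits. Cyc1, which holds the haem of cytochrome c1, measured 678, 613, 681, 681 and 709 CPM in MLPKO and 682, 774, 695, 792 and 692 CPM in cRADΔ/Δ-MLPKO (0.11 ± 0.07, SE, edgeR adjusted p = 0.348). Uqcrfs1, the Rieske iron-sulphur protein, measured 585, 529, 586, 592 and 631 CPM in MLPKO and 589.9, 656, 576, 679.5 and 605 CPM in cRADΔ/Δ-MLPKO (0.09 ± 0.07, SE, edgeR adjusted p = 0.489). In both genes cRADΔ/Δ-MLPKO mice 2 and 4 lay above every MLPKO mouse and the other 3 lay within the MLPKO range. The core proteins Uqcrc1 and Uqcrc2 had log2 fold changes of 0.05 and 0.01. Cycs, the soluble carrier between complexes III and IV, measured 435, 384, 427, 436 and 485 CPM in MLPKO and 471, 486, 458, 483 and 447 CPM in cRADΔ/Δ-MLPKO. Of the MLPKO mice, 4 lay below all cRADΔ/Δ-MLPKO mice and mouse 5 lay within their range (log2 fold change 0.11 ± 0.07, SE, edgeR adjusted p = 0.345).

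Complex IV structural subunits stood highest. Of 17 such genes, 14 were tested and all 14 had a log2 fold change above 0 (median 0.24, a change of 18.4%), 10 reached an unadjusted p under 0.05 in the higher direction, and 1 passed the adjusted threshold. The remaining 3 are forms known from testis. Cox8c had 0 counts in every mouse, Cox7b2 had 0 to 8 counts and Cox6b2 had 4 to 36 counts. The mean log2 CPM over the 14 genes was 7.46 to 7.72 in MLPKO and 7.72 to 7.89 in cRADΔ/Δ-MLPKO, with MLPKO mouse 5 just below cRADΔ/Δ-MLPKO mouse 3. The groups of complexes II, III and V overlapped on the same measure.

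**Figure D2:**
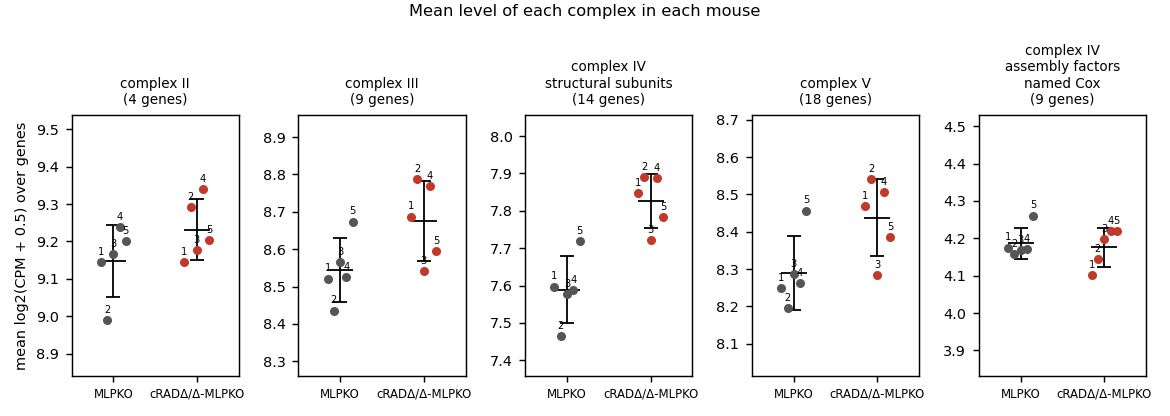
Mean log2(CPM + 0.5) over the tested genes of each complex (y axis, each panel spanning the same height) in each mouse, numbered as in the labels, with mean and SD per genotype (n = 5). In the complex IV structural panel all cRADΔ/Δ-MLPKO mice lie above all MLPKO mice, the other panels overlap, and the assembly factors have nearly equal means of 4.19 and 4.18.

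Cox8a (chr19:7192515-7194997, minus strand) measured 66.9, 56.4, 58.9, 60.4 and 63.3 CPM in MLPKO and 78.7, 79.6, 69.7, 76.1 and 76.9 CPM in cRADΔ/Δ-MLPKO. Every cRADΔ/Δ-MLPKO mouse lay above every MLPKO mouse. The log2 fold change was 0.32 ± 0.06 (SE), a rise of 24.6%, with an edgeR adjusted p of 0.0249. The call was lost without MLPKO mouse 5 (adjusted p = 0.0604) or without cRADΔ/Δ-MLPKO mouse 2 (0.0555), 4 (0.0585) or 5 (0.07), while the fold change stayed between 0.29 and 0.35 whichever mouse was left out of the edgeR fit. Cox4i1 (chr8:121391505-121400950, plus strand), the general form of the large regulatory subunit 4, was the other of the 2 genes whose genotypes did not overlap upwards, where 2.64% of all genes did so. It measured 944, 872, 1004, 996 and 1019.7 CPM in MLPKO and 1053, 1124, 1084, 1215 and 1072 CPM in cRADΔ/Δ-MLPKO, with the smallest gap between MLPKO mouse 5 and cRADΔ/Δ-MLPKO mouse 1. Its log2 fold change was 0.20 ± 0.07 (SE), and it did not pass the edgeR test (adjusted p = 0.109).

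Cox6a1 (chr5:115483701-115487050, minus strand), the general form of subunit 6a, measured 58.0, 49.6, 57.5, 60.4 and 51.4 CPM in MLPKO and 59.5, 68.7, 78.9, 70.3 and 67.0 CPM in cRADΔ/Δ-MLPKO. Only cRADΔ/Δ-MLPKO mouse 1 lay within the MLPKO range (log2 fold change 0.31 ± 0.08, SE, edgeR adjusted p = 0.0609). Cox8b (chr7:140477069-140480359, minus strand), the form of subunit 8 found in heart and skeletal muscle, measured 236, 202, 238, 231 and 296 CPM in MLPKO and 313, 315, 273, 321 and 296 CPM in cRADΔ/Δ-MLPKO. MLPKO mouse 5 alone reached into the range of the other genotype (0.34 ± 0.09, SE, edgeR adjusted p = 0.0682). Cox7a1 (chr7:29883569-29885503, plus strand), the muscle form of subunit 7a, had the same layout. It measured 218, 192, 222, 213 and 299.7 CPM in MLPKO against 299.7, 311, 239.6, 314 and 273 CPM in cRADΔ/Δ-MLPKO (0.33 ± 0.12, SE, edgeR adjusted p = 0.13). Cox4i2, a form of subunit 4 known from lung and induced by low oxygen, was rare, at 5.76, 4.31, 4.28, 4.8 and 5.25 CPM in MLPKO and 6.34, 6.01, 8.41, 5.26 and 7.83 CPM in cRADΔ/Δ-MLPKO. Only cRADΔ/Δ-MLPKO mouse 4 lay within the MLPKO range, and the log2 fold change of 0.47 was the largest of the complex (SE 0.15, edgeR adjusted p = 0.0945). Cox6a2, the muscle form of subunit 6a, measured 868, 870.0, 904, 872 and 933 CPM in MLPKO and 963, 961, 840.4, 1027 and 931 CPM in cRADΔ/Δ-MLPKO (0.09 ± 0.06, SE, edgeR adjusted p = 0.458). Cox7a2, the general form of subunit 7a, measured 182, 169, 173, 178 and 178 CPM in MLPKO and 189, 184, 179, 218 and 186 CPM in cRADΔ/Δ-MLPKO (0.12 ± 0.06, SE, edgeR adjusted p = 0.295). Both overlapped, through cRADΔ/Δ-MLPKO mice 3 and 5 in Cox6a2 and through mouse 3 in Cox7a2. The remaining tested subunits ranged from 0.09 (Cox6b1) to 0.34 (Cox7c) on the log2 fold change scale.

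DESeq2 called Cox8a, Cox6a1, Cox8b, Cox4i2, Cox4i1, Cox7b and, in complex III, Uqcr11 higher, so 6 of its 7 calls on the higher side fell in complex IV.

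**Figure D3:**
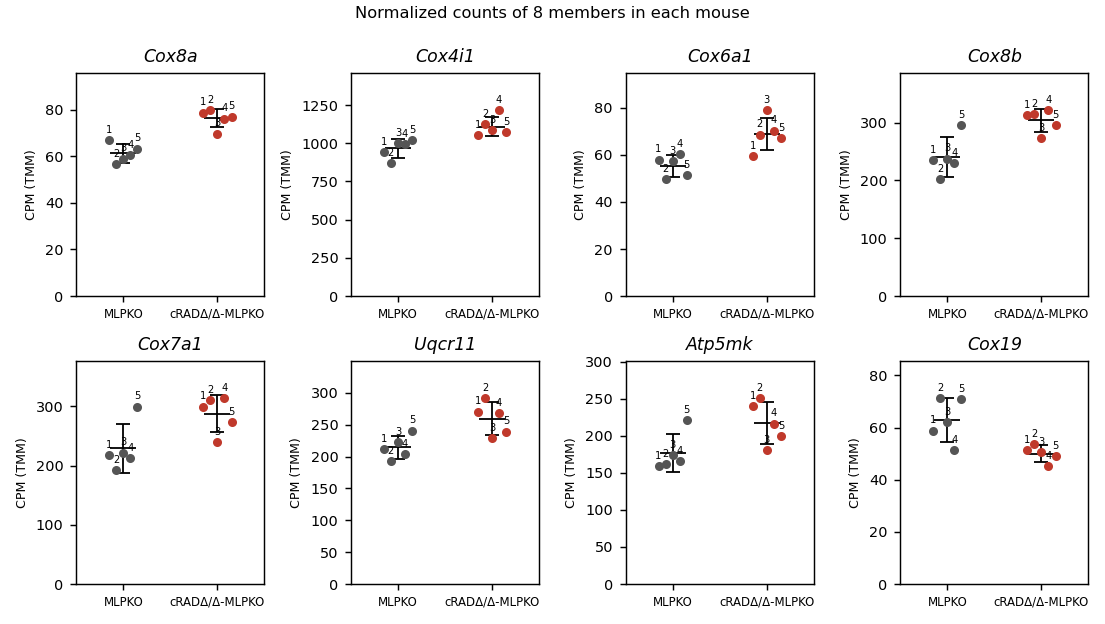
Normalized counts (CPM after TMM scaling, y axes from 0) of 8 genes in each mouse, numbered as in the labels, with mean and SD per genotype (n = 5). Cox8a and Cox4i1 separate the genotypes, MLPKO mouse 5 reaches the cRADΔ/Δ-MLPKO range in Cox8b, Cox7a1, Uqcr11 and Atp5mk, and Cox19 is the 1 gene of the 8 that lies lower in cRADΔ/Δ-MLPKO.

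Paired isoforms occupy the same position in complex IV. Both are counted in the same library, so their ratio is free of library size and scaling. Differences between libraries that are linked to transcript length do not cancel in it. Per kilobase of transcript, Cox6a2 stood at 1308 CPM in MLPKO and 1389 CPM in cRADΔ/Δ-MLPKO and Cox6a1 at 97.0 and 121 CPM, so that the muscle form made up most of this pair. Cox7a1 stood at 519 and 652 CPM per kilobase against 217 and 235 for Cox7a2. Cox8b and Cox8a were close to each other per kilobase, at 112 and 141 against 108 and 135 CPM. This closeness rests on the annotated canonical lengths, 2149 bases for Cox8b and 564 for Cox8a. Which transcripts were present was not tested, so the share of each form is uncertain. By counts alone, Cox8b was 3.91 times Cox8a in MLPKO and 3.98 times in cRADΔ/Δ-MLPKO (geometric means). Cox4i2 stood at 6.43 and 8.92 CPM per kilobase against 1235 and 1417 for Cox4i1.

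The log2 ratio of counts of Cox6a2 to Cox6a1 was 4.01 ± 0.14 in MLPKO and 3.78 ± 0.22 in cRADΔ/Δ-MLPKO (SD, n = 5 each), a difference of -0.23 with p = 0.0873 in a two-sided exact permutation test. That of Cox7a1 to Cox7a2 was 0.36 ± 0.23 and 0.58 ± 0.13, a difference of 0.22 with p = 0.103 in the same exact test. The log2 ratio of Cox8b to Cox8a was 1.97 ± 0.16 and 1.99 ± 0.05, a difference of 0.03 with an exact p of 0.762. That of Cox4i2 to Cox4i1 was -7.63 ± 0.19 and -7.37 ± 0.34, a difference of 0.26 with an exact p of 0.159. After Benjamini-Hochberg adjustment over the 4 ratios the exact values were 0.206, 0.206, 0.762 and 0.212, and the smallest p that 5 against 5 mice allow is 0.00794. No shift between the paired forms was thus detected in any of the 4 ratios at this sample size. The pair with the closest ratio, Cox8b and Cox8a, had log2 fold changes of 0.34 and 0.32 for its members.

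**Figure D4:**
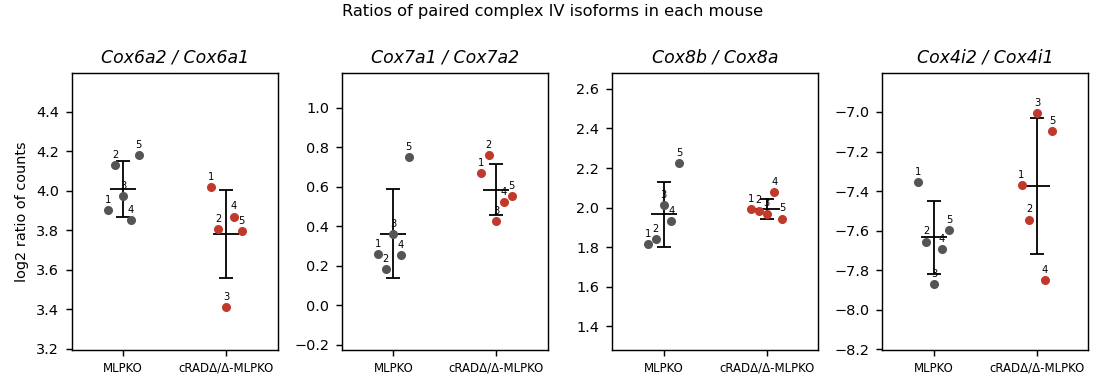
Log2 ratio of counts of paired complex IV isoforms in each mouse (y axes of equal span), with mean and SD per genotype (n = 5). The genotypes overlap in all 4 pairs, cRADΔ/Δ-MLPKO mouse 3 has the lowest Cox6a2 to Cox6a1 ratio (3.41), and MLPKO mouse 5 has the highest Cox8b to Cox8a ratio (2.23).

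The complex IV assembly factors that carry Cox symbols did not share the displacement. Of 9 tested, 5 lay above 0 and 4 below (median 0.05), and 0 passed the edgeR test (0 higher and 1 lower at an unadjusted p under 0.05). Cox19 (chr5:139320952-139337173, minus strand), which takes part in delivering copper to the oxidase, measured 58.8, 71.2, 62.0, 51.5 and 71.1 CPM in MLPKO and 51.5, 53.7, 50.6, 45.3 and 49.2 CPM in cRADΔ/Δ-MLPKO. Of the MLPKO mice, only mouse 4 lay within the cRADΔ/Δ-MLPKO range (log2 fold change -0.33 ± 0.09, SE, edgeR adjusted p = 0.0667), and DESeq2 called the gene lower (adjusted p = 0.0145). Cox10 and Cox15, which make haem A, had log2 fold changes of 0.08 and 0.09, and the copper chaperones Cox17 and Cox11 0.11 and -0.004. Cox20 lay at 0.89 CPM or less, so its value of -0.28 has an SE of 0.48. Of the other symbols that the rule took in, Cox7a2l, which joins complexes III and IV in supercomplexes, measured 121, 104, 123, 128 and 184 CPM in MLPKO and 125, 128, 189.7, 124 and 128 CPM in cRADΔ/Δ-MLPKO. MLPKO mouse 5 and cRADΔ/Δ-MLPKO mouse 3 stood apart from the other 8 mice, which lay between 104 and 128 CPM (0.07 ± 0.16, SE, edgeR adjusted p = 0.841). Cox5b-ps, annotated as protein coding, is a copy of Cox5b, so its 9.82 to 16.1 CPM may hold reads of that gene.

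In complex V, 18 of 19 genes were tested, since a second row named Atp5po had 0 counts in every mouse. Of these, 17 had a log2 fold change above 0 (median 0.15), 8 reached an unadjusted p under 0.05, all higher, and 0 passed the adjusted threshold in edgeR or in DESeq2. The 5 subunits of the catalytic F1 part had a median of 0.12 and the 12 subunits of the Fo part, stalk and membrane a median of 0.17. Atp5f1b, the catalytic beta subunit and the most abundant of the 61 genes per kilobase, had means of 3974 ± 189 CPM in MLPKO and 4308 ± 362 CPM in cRADΔ/Δ-MLPKO (SD, n = 5 each, log2 fold change 0.12 ± 0.07, SE, edgeR adjusted p = 0.383). The 3 genes with the smallest p were Atp5mf, Atp5po and Atp5mk. Atp5mk, a small membrane subunit that supports dimers of the synthase (chr19:47071822-47079143, minus strand), measured 159, 162, 174, 166 and 221 CPM in MLPKO and 240.2, 251, 180.5, 216 and 199.9 CPM in cRADΔ/Δ-MLPKO. Again MLPKO mouse 5 alone lay within the range of the other genotype (0.30 ± 0.11, SE, edgeR adjusted p = 0.14). Atp5mf, a membrane subunit, measured 341, 332, 351, 359 and 375 CPM in MLPKO and 405, 433, 355, 425 and 387 CPM in cRADΔ/Δ-MLPKO (0.19 ± 0.07, SE, edgeR adjusted p = 0.121). Atp5po, a stalk subunit that confers oligomycin sensitivity, measured 74.0, 73.6, 79.3, 80.1 and 79.0 CPM in MLPKO and 87.3, 92.5, 78.9, 95.6 and 82.8 CPM in cRADΔ/Δ-MLPKO (0.18 ± 0.06, SE, edgeR adjusted p = 0.124). In both, only cRADΔ/Δ-MLPKO mouse 3 failed to exceed every MLPKO mouse. Atp5me had the largest value of the complex, 0.40 ± 0.16, with 88.0 to 139 CPM in MLPKO and 101 to 169.9 CPM in cRADΔ/Δ-MLPKO. Atp5if1, the inhibitor that blocks ATP hydrolysis by the synthase, was the 1 gene of complex V below 0. It measured 21.4, 18.8, 17.5, 18.7 and 30.1 CPM in MLPKO and 19.2, 18.7, 19.3, 19.6 and 23.0 CPM in cRADΔ/Δ-MLPKO, so its value rested on MLPKO mouse 5 (-0.09 ± 0.14, and 0.07 without that mouse).

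The genes that build and partner these complexes were compared in the same fit. Of 40 assembly factors outside the Cox symbols, 36 were tested, 0 passed the edgeR test (4 higher and 1 lower at an unadjusted p under 0.05, 0 called by DESeq2) and their median log2 fold change was 0.02. Of 37 nuclear complex I subunits, all were tested and 34 lay above 0, with a median of 0.14. At an unadjusted p under 0.05, 13 were higher and 0 lower (35.1% higher, the same share as in the 57 genes, against 10.1% of all genes). DESeq2 called 3 higher, and in 3 the genotypes did not overlap upwards, against 3.81% and 2.64% of all genes. In the edgeR test, 2 passed in the higher direction. These were Ndufa1 (106 to 129 CPM in MLPKO and 129 to 159 CPM in cRADΔ/Δ-MLPKO, 0.32 ± 0.08, edgeR adjusted p = 0.0475) and Ndufv3 (112 to 135 and 137 to 163 CPM, 0.30 ± 0.07, adjusted p = 0.0492). Both calls were lost with RLE size factors, without a filter on low counts and with Gm and Rik genes kept. The 6 mitochondrially encoded subunits of complexes III to V had a median of 0.14 and 0 edgeR calls (1 at an unadjusted p under 0.05, 1 called by DESeq2). Among them mt-Co1, the catalytic core of complex IV, lay at 62251 to 82160 CPM in MLPKO and 82000 to 87815 CPM in cRADΔ/Δ-MLPKO (0.25 ± 0.09, edgeR adjusted p = 0.118). mt-Co2, which belongs to the same complex, lay at 195 to 283 and 170.1 to 291 CPM. Nuclear copies of mitochondrial DNA share sequence with these genes, and how reads that match several places were counted is not given in the sources used here, so the mitochondrially encoded levels are uncertain. All mitochondrially encoded genes together took 15.8% to 21.2% of counts in MLPKO and 21.4% to 22.6% in cRADΔ/Δ-MLPKO. Of 12 regulators, 0 passed the edgeR test (1 in each direction at an unadjusted p under 0.05 and in DESeq2). The higher of these was Ppargc1a, the coactivator PGC-1 alpha that drives mitochondrial biogenesis. It lay at 55.3 to 97.2 CPM in MLPKO and 92.1 to 115 CPM in cRADΔ/Δ-MLPKO (0.43 ± 0.13, edgeR adjusted p = 0.0785). The lower was Esrrg, at 59.0 to 77.0 CPM in MLPKO and 54.2 to 58.3 CPM in cRADΔ/Δ-MLPKO, without overlap (-0.24 ± 0.08, edgeR adjusted p = 0.0941). A further 14 partner genes such as the ADP/ATP carriers gave 0 edgeR calls (2 higher and 1 lower at an unadjusted p under 0.05, 1 called higher by DESeq2) and a median of 0.03.

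Short transcripts stood out beyond the genes of the rule, in a class that still held other respiratory chain genes. Among protein-coding genes outside the group, the 69 whose canonical transcript is shorter than 600 bases had a median log2 fold change of 0.14, and 79.7% of them lay above 0. The 69 include complex I subunits and assembly factors, such as Ndufa1, Ndufa6, Ndufs5 and Uqcc2, and the class was not examined without them. The medians of the longer classes, from 600 bases up, were 0.04 or less. The 11 genes of complexes II to V in the shortest class had a median of 0.22 and all lay above 0, and those in the 4 longer classes had medians from 0.09 to 0.15. Across the 46 structural genes, Spearman's rho between transcript length and log2 fold change was -0.41, and across 12984 other protein-coding genes it was -0.04. Both are descriptions across genes of 1 set of libraries. In single mice, short and long structural genes deviated from the genotype mean together in some cases and not in others. MLPKO mouse 5 deviated by 0.19 (log2 CPM) over 10 short structural genes, by 0.12 over the 36 longer ones and by 0.12 over 30 short genes outside the group. These 30 also hold complex I subunits such as Ndufa1 and Ndufa6. cRADΔ/Δ-MLPKO mouse 3 deviated by -0.21, -0.10 and -0.05, and MLPKO mouse 2 by -0.10, -0.12 and -0.03. By contrast, cRADΔ/Δ-MLPKO mouse 1 deviated by 0.11, -0.01 and 0.06, and MLPKO mouse 4 by -0.06, 0.01 and -0.03. In these last 2 mice the short structural genes lay on the same side of 0 as the short genes outside the group. The longer structural genes lay on the other side, close to 0. Length and complex also went partly together. The 4 complex II transcripts were 1258 to 4030 bases long, and the tested complex IV structural ones 441 (Cox7a1) to 2149 bases (Cox8b). The part of transcript length in the difference between the genotypes, or in the order of the complexes, was not tested.

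**Figure D5:**
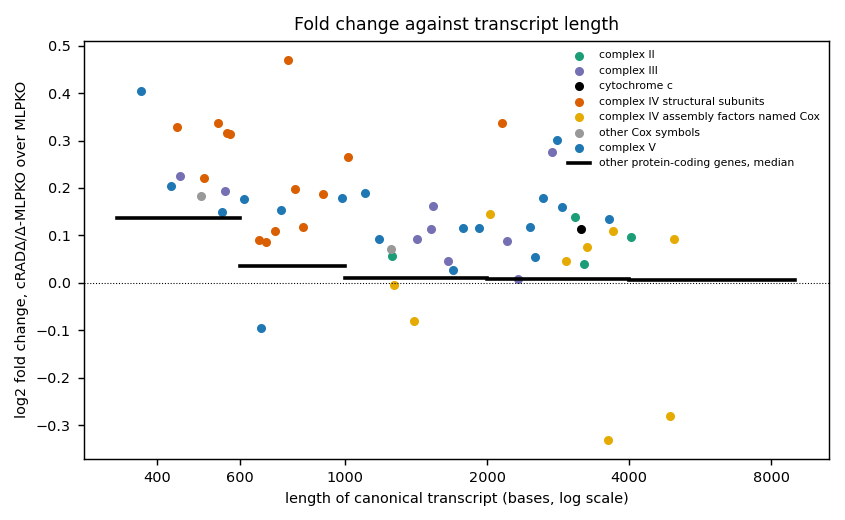
Log2 fold change (cRADΔ/Δ-MLPKO over MLPKO, y axis) of the 57 tested genes against the length of the canonical transcript (x axis, log scale), coloured by complex, with black bars at the median of the other protein-coding genes of each length class. Genes under 600 bases all lie above 0, and the black bar of that class stands at 0.14, above those of the longer classes.

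The promoters were searched for 4 motifs tied to respiratory chain genes, on both strands of the 250 bases before the start of each canonical transcript (GENCODE M39). The core of the NRF1 motif (GCGCATGC) was present in 4 of the 46 structural genes (8.7%), against 3.17% of 13041 protein-coding genes tested. The ETS motif bound by GABP (CCGGAAGT) was present in 2 of the 46 (4.35%), against 3.63%. The ERR motif (TCAAGGTCA) and the YY1 motif (AAGATGGCG) were in 0 of the 46, against 0.337% and 0.859%. The matches of Cox8a, the 1 gene that passed the test, of Uqcr11 and Cox6a1, with the smallest p in complex III and the next smallest in complex IV, and of Cycs are shown with their surroundings, 5′ to 3′ on the strand of the gene, with the match in capitals.
Cox8a, ETS, chr19:7194969-7194998, minus strand: atttccgaaatACTTCCGGctcgggcgtcc
Uqcr11, ETS, chr10:80242703-80242732, minus strand: ttctctcctccCCGGAAGTagatgtcaatg
Cox6a1, NRF1 core on both strands with overlap, chr5:115487160-115487189, minus strand: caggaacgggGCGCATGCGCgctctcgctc
Cycs, NRF1 core, chr6:50543591-50543620, minus strand: catgctagctcGCATGCGCgcgcacaaacc
The matches end 16, 38, 130 and 45 bases before the canonical start. The match of Cox8a lies within a longer annotated transcript of the same gene. Cox8b, Cox7a1 and Cox4i1, with log2 fold changes of 0.34, 0.33 and 0.20, held none of the 4 motifs in this window. Cycs, with a match, had 0.11. A match of letters is not evidence of binding, and the part of these motifs in the fold changes was not tested.

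Whether reads were counted by strand is not given in the sources used here. Of the 57 tested genes, 41 overlap another protein-coding or long non-coding gene, so part of their counts may come from the neighbour. In 4 of these a neighbour lies on the same strand (Cox7a2l, Cox16, Cox17 and Atp5po). Cox8a overlaps the non-coding Gm59070, Cox8b overlaps Psmd13, Cox4i1 overlaps Emc8 and Sdhd overlaps Timm8b, each on opposite strands.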

How the data were processed

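Per the labels and the study's methods, the authors checked reads with FastQC, used STAR for alignment to GRCm39 and featureCounts for counting, and deposited raw counts of 10 mice. Versions and the settings for strand and for reads that match several genes are not given in the sources used here. Rows without values were left out (57185 of 60676 remained). As in the study, a gene was kept if 6 or more mice had above 10 counts, and Gm and Rik genes were removed. Genotypes were compared with TMM scaling and the quasi-likelihood test of edgeR 4.0.16 (R 4.3.3), with Benjamini-Hochberg adjustment over 13453 genes and a threshold of 0.05. CPM are counts scaled to the TMM-adjusted library size, and SE is the log2 fold change divided by the root of F. Lengths are those of canonical transcripts in GENCODE M39. The members and gene lists were chosen with earlier results of these data known. Each mouse was 1 library, and the sources do not say whether mice shared litters. Genes given with per-mouse values were the complex II subunits, the isoform pairs, Cox7a2l, Cycs, Cyc1, Uqcrfs1, Atp5if1, called members and the 3 members of smallest p in complexes III to V. Others were chosen after their values were seen. Alternatives were DESeq2 1.42.0, limma-voom (limma 3.58.1), other scalings and filters, robust dispersion, a block on mouse number and leaving out each mouse. The scripts were tested on simulated data. Same-numbered mice of the genotypes are different animals.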

Additional observations from a re-analysis of the deposited data

Results flagged for a closer look

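In 70 groups of 5 mice examined, 7 had a single mouse far from the other 4, where chance gives about 1 in 20. MLPKO mouse 5 was the highest in Cox7a1 (299.7 CPM), in Atp5mk (221 CPM), in the mean log2 CPM of the complex IV assembly factors named Cox (4.26) and in that of Cox7a2l and Cox5b-ps (5.73). cRADΔ/Δ-MLPKO mouse 4 was the highest in Cox7a2 (218 CPM), mouse 3 in Cox7a2l (189.7 CPM) and mouse 5 in Atp5if1 (23.0 CPM). Without MLPKO mouse 5, 47 genes were called in all instead of 369, the median log2 fold change of the 57 genes was 0.17 and 54 of them lay above 0. Such a fall was not particular to this mouse. With any other mouse left out, the genes called ranged from 50 (without cRADΔ/Δ-MLPKO mouse 5) to 826 (without MLPKO mouse 4).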

How the results depend on the processing

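In the alternatives with all 10 mice, 52 or 53 of the 57 genes had a log2 fold change above 0, and 50 to 54 when each mouse was left out in turn. The upper quartile scaling moved the median of all genes from 0.01 to 0.04. DESeq2 called 7 members higher and 1 lower and 1 mitochondrially encoded subunit, and the other fits with all mice called 1 member higher and 0 lower. With each mouse left out, members called higher were 0 to 2, members called lower 0 to 1, and members with an unadjusted p under 0.05, 15 to 32. Cox19 was called lower without MLPKO mouse 4 (adjusted p = 0.0212 in edgeR), Cox6a1 higher without MLPKO mouse 4 (0.0405) or cRADΔ/Δ-MLPKO mouse 1 (0.0461), and Cox8b without MLPKO mouse 5 (0.0412). The calls among complex I subunits fell from 2 to 0 with Gm and Rik genes kept, RLE size factors, no filter on low counts or the replicate block, and ranged from 0 to 2 with each mouse left out. The log2 fold change then ranged from -0.0603 to 0.22 for Cox7a2l and from -0.15 to 0.0655 for Atp5if1, and the difference in the log2 ratio of Cox8b to Cox8a from -0.00975 to 0.0926. The causes were not tested. With the mouse number as a block, 281 genes were called in all and 1 member (Cox8a), and same-numbered mice correlated at -0.04 to 0.20, so the numbers were not taken to pair mice. Genes below about 1 CPM, such as Cox20, were too rare for a difference of this size to be detected.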
